A study of Mus musculus with 16 samples.

Results

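The 10 genes described here are core members of the BCL-2 family, taken by their gene symbol from count and TPM tables of 56748 genes. They are the antiapoptotic genes Bcl2, Bcl2l1 and Mcl1, the effector genes Bax and Bak1, and the BH3-only genes Bcl2l11, Bid, Pmaip1, Bbc3 and Bad. RNA-Seq was performed on splenic memory CD4+ T cells, sorted by flow cytometry as CD44high cells with little or no CD25, from HP1α KO and HP1γ KO mice and from WT littermates of either line. There were 4 samples in each of 4 groups. HP1α and HP1γ, spelled HP1a and HP1g in the sample labels, are proteins that bind methylated histone H3 in silent chromatin and are encoded by Cbx5 and Cbx3. In the HP1α line, KO mice were Hp1a-/- and WT mice Hp1a+/+, after a floxed allele had been removed with CMV-cre, a transgene that acts in all tissues. In the HP1γ line, KO and WT mice were both homozygous for a floxed Hp1g allele and the KO mice also carried Cd4-cre, which acts in the T cell lineage, so that in this line the loss of HP1γ and the presence of Cre cannot be told apart. Mice were of mixed 129/Sv and C57BL/6 background, male and 6 to 12 weeks old. The samples were compared as KO against WT in each line and as WT against WT between the lines, to ask whether the loss of either HP1 protein went with a change of the transcripts that set the threshold of T cell death.

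BCL-2 family proteins decide whether the outer membrane of the mitochondrion stays closed. BAX and BAK open it and release cytochrome c, which starts the caspases, while BCL-2, BCL-XL (encoded by Bcl2l1) and MCL-1 hold BAX and BAK in check. BH3-only proteins sense stress, loss of cytokine or death receptor signals and either block the antiapoptotic proteins or activate BAX and BAK. In T cells, BIM (encoded by Bcl2l11) is known for ending immune responses and for deleting self-reactive cells, and BCL-2 and MCL-1 for keeping memory cells alive.

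No member passed the adjustment over all genes in either KO comparison, and none passed the test of a difference between the effects of the 2 knockouts. Between the WT groups of the 2 lines, where 12.8% of all genes passed, 4 of the 10 members did: Bcl2l11, Pmaip1 and Bbc3 were lower and Bid higher in HP1α WT than in HP1γ WT, by 1.34-fold to 1.69-fold. All 4 are BH3-only genes, as is Bad, which did not pass. In the same samples, 6 members and 2823 of 15012 genes passed by DESeq2, with Bax and Bcl2l1 added to these 4. Only Bcl2l11 passed under every setting tried on the WT samples. The KO samples of the lines showed the same directions for all 4, and 3 of them passed there, in a comparison in which 32.8% of all genes did. Those samples differ in the HP1 protein lost as well as in line.

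The samples held between 26694045 and 40199637 estimated counts, and each member had at least 10 counts in all 16 samples. T cell genes were high in all samples, with Cd4 between 556 and 836 TPM and Cd44 between 132 and 198 TPM. The summed TPM of 4 memory gate genes was between 1278 and 1771, and that of 3 genes of naive cells between 1195 and 1450. Sums were between 28.8 and 62.2 TPM for B cell genes, 25.5 and 187.9 TPM for myeloid genes and 47.0 and 188.3 TPM for NK cell genes. Foxp3, which marks Treg cells, was between 34.2 and 90.0 TPM, and cells outside the gate cannot be told apart from low levels in the sorted cells. The summed TPM of 4 hemoglobin genes was between 118.8 and 621.5 in HP1α KO, between 56.1 and 1703 in HP1α WT, between 275 and 4190 in HP1γ KO and between 141.6 and 1815 in HP1γ WT. Of the targeted transcripts, Cbx5 was lower in all HP1α KO samples than in all HP1α WT samples (27.1 ± 2.77 against 40.3 ± 9.28 CPM, SD, n = 4), but it did not pass (unadjusted p = 0.00257 and adjusted p = 0.946 by edgeR over all genes). In the line with an intact Hp1a, it was at 25.4 ± 4.72 CPM in HP1γ KO and 31.3 ± 4.98 CPM in HP1γ WT, which overlap the HP1α KO values. Cbx3 was lower in HP1γ KO than in HP1γ WT (47.5 ± 1.97 against 84.5 ± 8.66 CPM, adjusted p = 0.00149 by edgeR). These are RNA levels. For protein in naive CD4+ T cells, the paper reports HP1α fully lost in the HP1α line and HP1γ almost fully lost in the other. Protein of memory cells is not part of these data. In bulk samples, fewer cells of a type and less RNA per cell cannot be told apart.

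Levels of different genes were compared in TPM, which is per length. Mcl1 was the most abundant member in all 16 samples, with a median of 463 TPM (400 to 495). Bax followed with 139 TPM (111 to 161) and Bak1 with 69.0 TPM (44.9 to 81.1). These steps were clear of the spread between samples, since the ranges of Mcl1 and Bax, and of Bax and Bak1, did not overlap. From Bak1 on, each gene overlapped the next one in the order. The median was 47.9 TPM for Bcl2l11, 42.6 TPM for Pmaip1, 39.6 TPM for Bbc3 and 35.2 TPM for Bcl2l1. Bad (20.3 TPM), Bcl2 (17.7 TPM) and Bid (11.8 TPM) were the lowest members. Mcl1 varied least among the samples (coefficient of variation 5.81%) and Pmaip1 most (33.5%), followed by Bcl2l11 (30.9%).

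**Figure D1:**
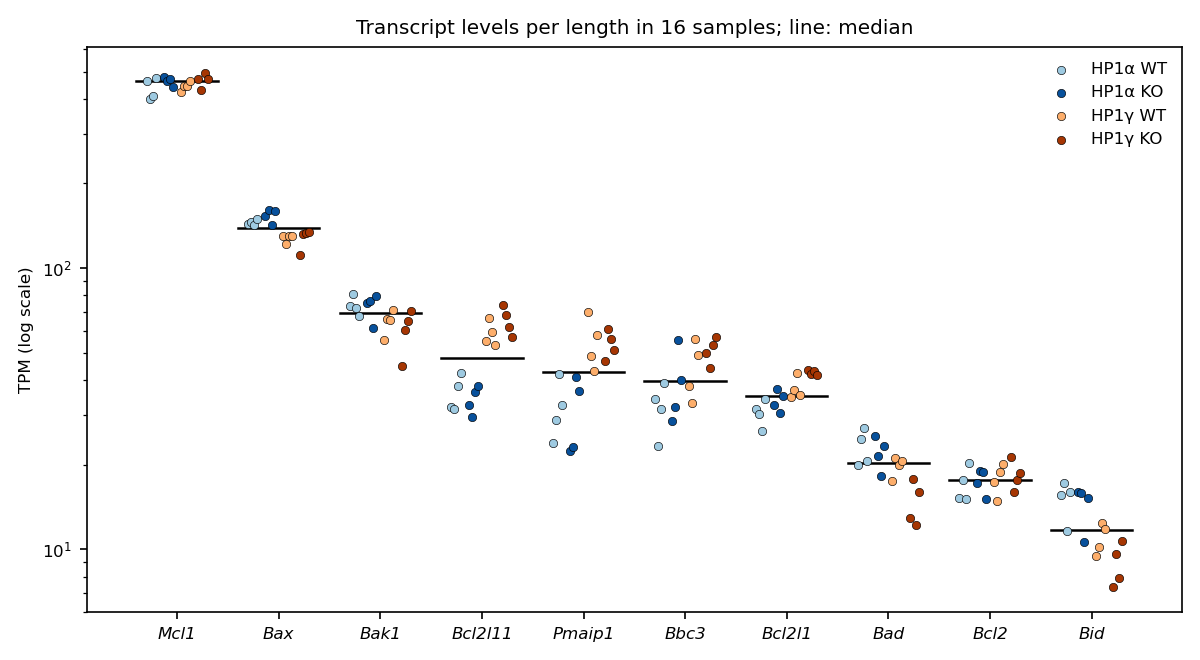
TPM of the 10 members (log axis) in 16 samples, ordered by their median (line), with a color for each group of 4 samples. Mcl1 lies between 400 and 495 TPM and above all other members, and Bcl2l11 splits into a lower set of HP1α line samples and a higher set of HP1γ line samples.

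Values of the same gene are given from here on as CPM after TMM normalization, for replicates 1 to 4 in order. Among the antiapoptotic genes, Bcl2 (ENSMUSG00000057329, GRCm39 chromosome 1, 106465908 to 106642060, minus strand), the founding member of the family, was measured at 75.5, 82.6, 86.2 and 64.4 CPM in HP1α KO and at 66.4, 75.4, 68.7 and 89.6 CPM in HP1α WT. The HP1γ line gave 91.6, 66.6, 77.2 and 77.7 CPM of Bcl2 in KO and 81.2, 66.9, 78.3 and 89.7 CPM in WT. The 4 groups of Bcl2 values overlapped throughout. Mcl1 (ENSMUSG00000038612, chromosome 3, 95566026 to 95570487, plus strand), whose short-lived protein many lymphocytes depend on, was at 561, 534, 595 and 519 CPM in HP1α KO and at 564, 522, 530 and 567 CPM in HP1α WT. The HP1γ line gave 572, 505, 579 and 528 CPM of Mcl1 in KO and 566, 557, 504 and 548 CPM in WT, within the same range.

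The KO effects of both genes were close to 0, with the narrower interval for Mcl1. The log2 fold change of Mcl1 was 0.017 in HP1α KO (95% confidence interval -0.11 to 0.15) and 0.016 in HP1γ KO (-0.13 to 0.16), by edgeR. For Bcl2 it was 0.040 (-0.21 to 0.29) and -0.0046 (-0.25 to 0.24), with wider intervals.

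Bcl2l1 (ENSMUSG00000007659, chromosome 2, 152622582 to 152673655, minus strand) encodes BCL-XL, which activated T cells induce and on which red cell precursors depend. Its values were 44.5, 46.4, 45.7 and 47.0 CPM in HP1α KO and 44.0, 38.9, 38.7 and 46.0 CPM in HP1α WT. In HP1γ KO they were 59.3, 56.6, 53.5 and 52.6 CPM, and in HP1γ WT 50.9, 52.3, 51.5 and 44.6 CPM. All HP1γ KO samples lay above all HP1γ WT samples. The two-sided exact permutation test gave p = 0.0286, which is the lower limit for 2 groups of 4. With edgeR, the log2 fold change was 0.16 (standard error 0.0729) and the adjusted p 0.413, so that Bcl2l1 was not called. The hemoglobin sum had a median of 3137 TPM in HP1γ KO (275 to 4190) and 869 TPM in HP1γ WT (141.6 to 1815), with overlapping ranges. For replicates 1 to 4 in order, the sum was 3419, 4190, 275 and 2855 TPM in HP1γ KO. In HP1γ WT it was 141.6, 1512, 1815 and 225.7 TPM. The part of red cell transcripts in the Bcl2l1 values was not tested.

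The effector genes differed little within a line. Bax (ENSMUSG00000003873, chromosome 7, 45111015 to 45116325, minus strand), whose protein moves from the cytosol to mitochondria when it is activated, was at 77.2, 81.1, 76.6 and 79.9 CPM in HP1α KO and at 72.4, 70.8, 75.5 and 76.7 CPM in HP1α WT. The HP1γ samples had Bax at 54.3, 63.7, 64.4 and 63.7 CPM in KO and 67.7, 62.7, 62.2 and 64.6 CPM in WT. All 8 samples of the HP1α line were above all 8 of the HP1γ line. Bak1 (ENSMUSG00000057789, chromosome 17, 27238784 to 27247983, minus strand), whose protein sits in the mitochondrial membrane, was at 80.8, 80.3, 72.0 and 84.2 CPM in HP1α KO, at 79.6, 86.5, 82.5 and 74.2 CPM in HP1α WT, at 49.3, 61.7, 67.2 and 73.0 CPM in HP1γ KO and at 65.7, 72.8, 67.5 and 76.1 CPM in HP1γ WT. Its groups overlapped in each comparison, with the lowest values in HP1γ KO.

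Among the BH3-only genes, Bcl2l11 (ENSMUSG00000027381, chromosome 2, 127967958 to 128004476, plus strand) encodes BIM, which binds all antiapoptotic members. It was at 47.0, 47.1, 54.9 and 55.7 CPM in HP1α KO and at 46.7, 50.9, 51.6 and 54.5 CPM in HP1α WT. In the samples of HP1γ, it was at 107, 91.2, 80.2 and 70.1 CPM in KO and at 85.3, 103, 78.8 and 75.0 CPM in WT. The 2 lines were thus apart, with no sample of the HP1α line above 55.7 CPM and none of the HP1γ line below 70.1 CPM, while KO and WT overlapped in each line.

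Bid (ENSMUSG00000004446, chromosome 6, 120862525 to 120894171, minus strand) encodes the protein that caspase-8 cleaves to connect death receptors with mitochondria. Its values were 19.8, 19.3, 14.5 and 20.1 CPM in HP1α KO and 19.9, 20.6, 16.3 and 20.4 CPM in HP1α WT. In HP1γ KO they were 9.52, 11.7, 10.1 and 13.1 CPM, below all HP1γ WT samples at 13.4, 13.8, 15.1 and 15.4 CPM. Among the members, Bid had the largest KO difference in that line, where KO was lower by a log2 fold change of -0.36 (SE 0.117, 95% confidence interval -0.62 to -0.11). The unadjusted p was 0.0105 in edgeR's quasi-likelihood test and the adjusted p 0.312, and the exact permutation test (two-sided) gave p = 0.0286.

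Pmaip1 (ENSMUSG00000024521) encodes NOXA, a target of p53 that binds MCL-1. It was at 35.0, 35.8, 68.8 and 56.0 CPM in HP1α KO, at 38.6, 45.5, 74.7 and 52.6 CPM in HP1α WT, at 72.4, 90.0, 86.9 and 76.4 CPM in HP1γ KO and at 118, 81.3, 66.8 and 90.2 CPM in HP1γ WT. KO and WT overlapped in each line, and replicate 3 was the highest sample of either HP1α group. Bbc3 (ENSMUSG00000002083, chromosome 7, 16042318 to 16052130, plus strand) encodes PUMA, another target of p53. It was at 25.3, 26.5, 51.1 and 34.4 CPM in HP1α KO, at 27.6, 21.5, 30.7 and 34.4 CPM in HP1α WT, at 48.3, 39.6, 51.5 and 48.5 CPM in HP1γ KO and at 41.5, 33.9, 47.6 and 46.5 CPM in HP1γ WT. Its HP1α KO samples spread by more than the other groups, with replicate 3 above all HP1γ WT samples.

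Bad (ENSMUSG00000024959, chromosome 19, 6918902 to 6929280, plus strand) encodes a protein that growth factor signals keep inactive by phosphorylation. It was at 12.7, 11.3, 12.4 and 12.3 CPM in HP1α KO, at 11.0, 11.9, 13.2 and 10.8 CPM in HP1α WT, at 6.56, 8.55, 7.64 and 9.75 CPM in HP1γ KO and at 10.1, 9.43, 9.27 and 10.6 CPM in HP1γ WT. As for Bax, all 8 samples of the HP1α line were above all 8 of the HP1γ line. KO and WT overlapped in each line.

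**Figure D2:**
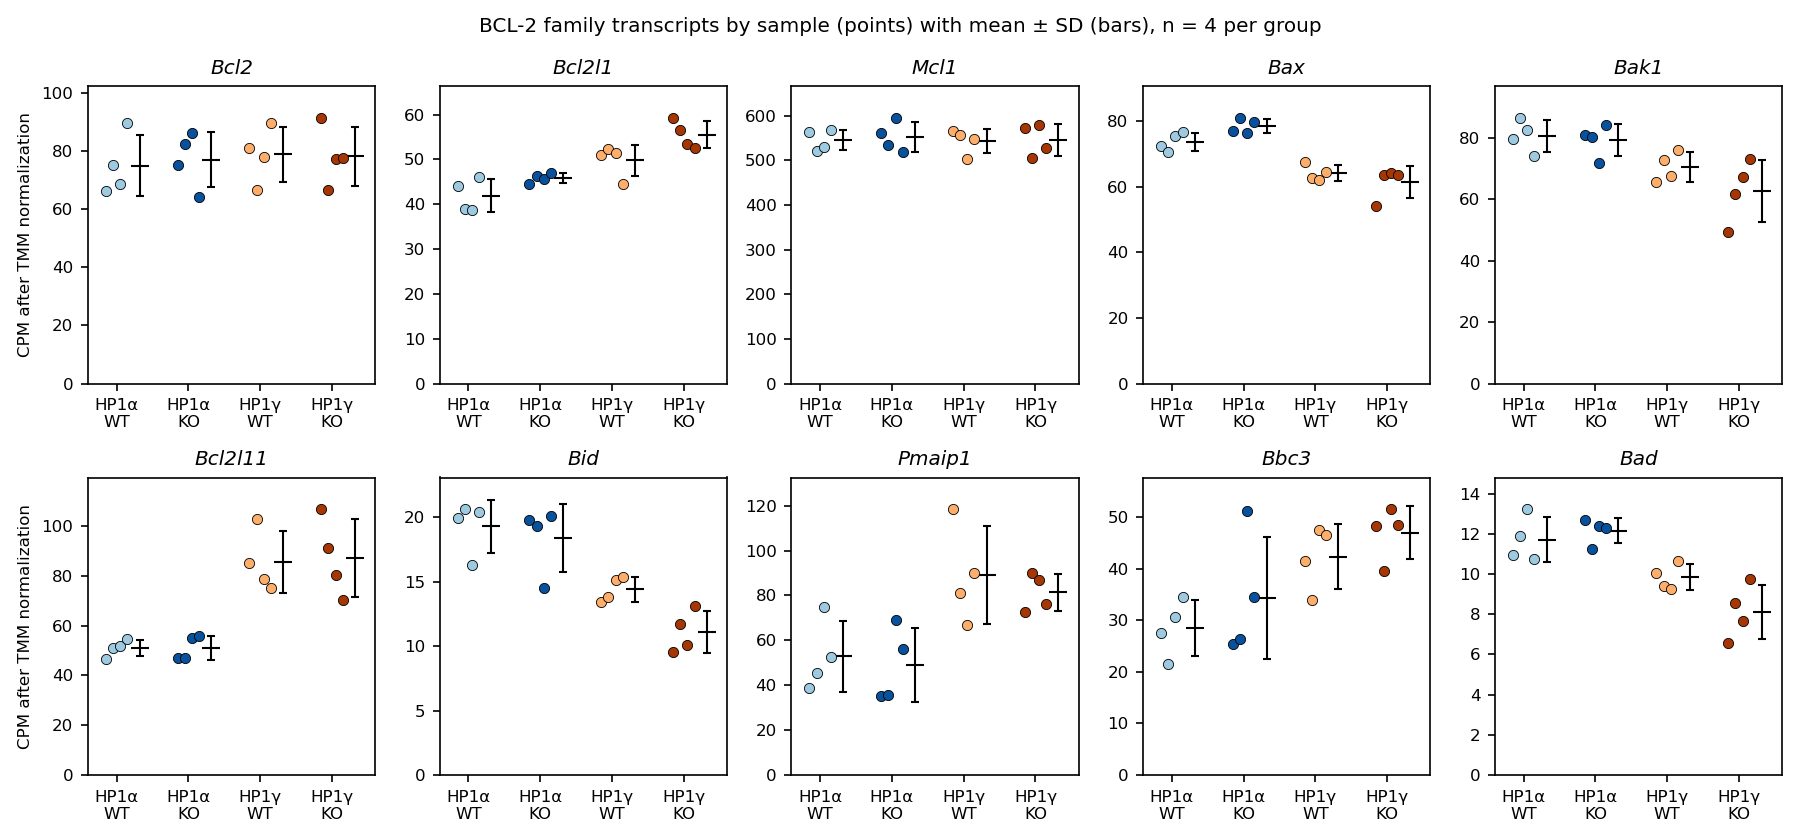
CPM after TMM normalization (linear axis from 0) of the 10 members in the 4 groups, with 1 point per sample and a bar for mean ± SD (n = 4). KO and WT of a line lie close together for most genes, and Bcl2l11 is lower in the HP1α line (46.7 to 55.7 CPM) than in the HP1γ line (70.1 to 107 CPM).

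Each KO group was then compared with its own littermates. In the HP1α line, 0 of 10 members had an adjusted p under 0.05 by edgeR, and 0 had an unadjusted p under 0.05. DESeq2 and limma on log2(TPM + 1) also called 0 members. Over all genes, 0 of 14881 passed (0%), with 635 at an unadjusted p under 0.05 and 5 calls by DESeq2, so that a low count of members is also what the rest of the genes gave. The log2 fold changes of the members lay between -0.11 for Pmaip1 and 0.27 for Bbc3 (95% confidence interval -0.22 to 0.75). Without HP1α KO replicate 3, that of Bbc3 was 0.0113. The members had a median of 0.029, against 0.0026 for all genes tested. The 0 members whose KO and WT samples did not overlap stand beside 2.96% of all genes.

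In the HP1γ line, 0 of 10 members passed the adjustment by edgeR, against 0.327% of 14975 genes, and Bid and Bcl2l1 had an unadjusted p under 0.05. DESeq2 called 256 genes in that comparison and 0 members, with a smallest adjusted p among the members of 0.133. Bid and Bcl2l1 were also the 2 members of 10 whose groups did not overlap, against 7.1% of all genes. The remaining log2 fold changes were between -0.27 for Bad (95% confidence interval -0.56 to 0.026) and 0.16 for Bbc3 (-0.10 to 0.42), and the median of the members was -0.030 against 0.00050 for all genes tested.

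The difference between the 2 KO effects was tested as an interaction over 16 samples. It passed for 0 of 10 members by edgeR, against 0.0507% of 15776 genes, and 0 members had an unadjusted p under 0.05. By DESeq2, 0 members passed and 1 had an unadjusted p under 0.05. Bad had the largest interaction, 0.33 on the log2 scale (95% confidence interval -0.00064 to 0.66, unadjusted p = 0.0504 and adjusted p = 0.523 by edgeR). For Bid it was 0.30 (-0.056 to 0.66) and for Bcl2l11 -0.019 (-0.37 to 0.34), so that the intervals of Bad and Bid leave room for unequal KO effects of up to 0.66 on the log2 scale.

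Between the WT groups of the 2 lines, which share no sample with each other, Bcl2l11 had the smallest p of the members. Its mean was 50.9 ± 3.22 CPM in HP1α WT and 85.5 ± 12.4 CPM in HP1γ WT (SD, n = 4), 1.68-fold higher in the HP1γ line (log2 fold change -0.75, standard error 0.101, adjusted p = 0.00312 by edgeR). Pmaip1 was at 52.8 ± 15.6 against 89.2 ± 21.7 CPM, 1.69-fold higher in HP1γ WT (log2 fold change -0.76, standard error 0.211, adjusted p = 0.0422). Bbc3 was at 28.5 ± 5.48 against 42.4 ± 6.25 CPM, 1.49-fold higher in HP1γ WT (log2 fold change -0.57, standard error 0.151, adjusted p = 0.0354). Bid differed the other way, with 19.3 ± 2.04 CPM in HP1α WT and 14.4 ± 0.975 CPM in HP1γ WT, 1.34-fold higher in the HP1α line (log2 fold change 0.42, standard error 0.0982, adjusted p = 0.0232). The samples of Bcl2l11 and Bid did not overlap, whereas those of Pmaip1 overlapped through HP1α WT replicate 3 (74.7 CPM) and those of Bbc3 through HP1α WT replicate 4 (34.4 CPM).

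These calls stand against a broad difference between the lines. By edgeR, 12.8% of 14804 genes passed, 4.55% as higher and 8.25% as lower in HP1α WT, while 1 member passed as higher and 3 as lower. Past an absolute log2 fold change of 1, the threshold used for differential expression in the study, there were 1.9% of all genes and 0 members. Of the members, Bax, Bid and Bad above and Bcl2l11 below did not overlap between the WT groups, 4 of 10 against 19.5% of all genes. Over all 8 samples of each line, Bax and Bad above and Bcl2l11 below did not overlap, 3 of 10 against 8.84% of all genes.

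The other 6 members did not pass in the WT comparison by edgeR. By DESeq2, Bax (log2 fold change 0.195, adjusted p = 0.0282) and Bcl2l1 (-0.253, adjusted p = 0.0458) passed. The effector genes Bax (log2 fold change 0.20, adjusted p = 0.0640) and Bak1 (0.19, adjusted p = 0.106) were nominally higher in HP1α WT by edgeR, as was Bad (0.25, adjusted p = 0.140), and Bcl2l1 was nominally lower (-0.25, adjusted p = 0.0750). Bcl2 and Mcl1 had log2 fold changes near 0, with -0.075 for Bcl2 (95% confidence interval -0.32 to 0.17) and 0.0042 for Mcl1 (-0.13 to 0.14).

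The call of Bcl2l11 held under all 17 alternative settings tried on the WT samples (adjusted p between 3.18e-09 and 0.0307), and those of Pmaip1, Bbc3 and Bid held under 9 of 17 each. Bcl2l11 was the only member called when HP1α WT replicate 1 or 2 or HP1γ WT replicate 1 was left out. The direction of all 4 genes was the same in all 17. Line, colony, and any difference in the time of sorting or of library preparation cannot be told apart in this comparison.

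The KO samples of the lines are different samples, and their comparison was added after the values had been seen. Line, the HP1 protein lost and the Cd4-cre of the HP1γ KO mice cannot be told apart in it. By edgeR, 7 of 10 members passed there, against 32.8% of 15020 genes, with 4 higher (against 16%) and 3 lower (against 16.8%) in HP1α KO. Bcl2l11 was at 51.2 ± 4.76 CPM in HP1α KO and 87.1 ± 15.7 CPM in HP1γ KO (log2 fold change -0.76, standard error 0.122, adjusted p = 0.00244). Pmaip1 had a log2 fold change of -0.73 (adjusted p = 0.0184) and Bid of 0.73 (adjusted p = 0.00382). Bbc3 had the same direction and missed the threshold (-0.45, 95% confidence interval -0.89 to -0.012, adjusted p = 0.103). Bad (0.58, adjusted p = 0.00684), Bax (0.36, adjusted p = 0.00416) and Bak1 (0.34, adjusted p = 0.0360) were higher and Bcl2l1 lower (-0.27, adjusted p = 0.00761) in HP1α KO. All 4 hemoglobin genes were called lower in HP1α KO as well, with a median log2 fold change of -2.84, and their part in the differences of the members was not tested. When single samples were left out, between 5 and 8 members passed. Bak1 was lost without HP1α KO replicate 1, 2 or 4 or HP1γ KO replicate 1 or 2, Pmaip1 was lost without HP1γ KO replicate 2, and Bbc3 passed without HP1α KO replicate 3 (log2 fold change -0.70, adjusted p = 0.00416 by edgeR).

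**Figure D3:**
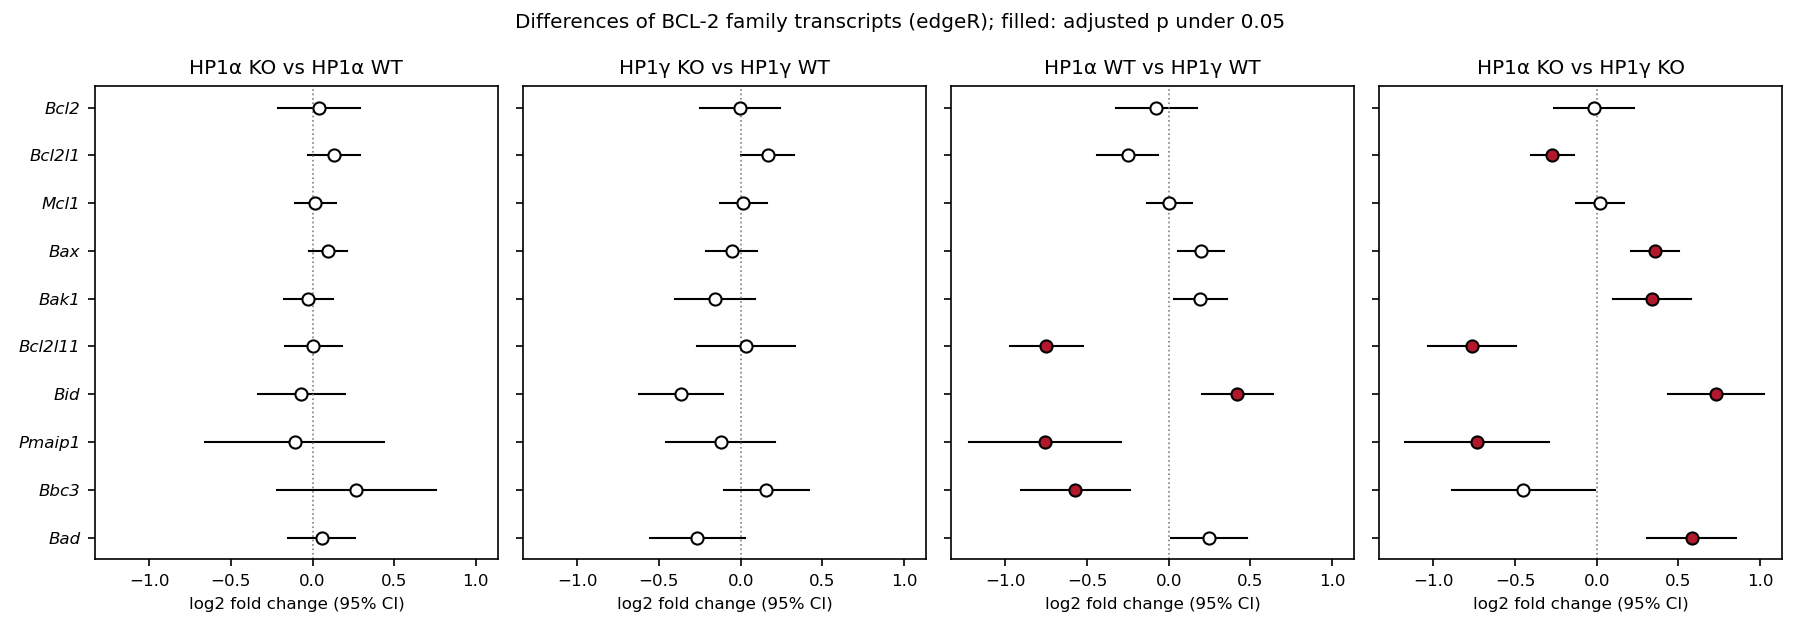
Log2 fold change with its 95% confidence interval (horizontal axis) of the 10 members in the 2 KO comparisons, the WT comparison and the comparison of the KO samples of the lines, by edgeR. Filled points have an adjusted p under 0.05: none in the KO comparisons, 4 between the WT groups (12.8% of all genes) and 7 between the KO groups (32.8% of all genes), with Bcl2l11 at -0.75 and -0.76 in the last 2 panels.

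The difference between the lines went with properties of the transcripts. Over all genes, the median log2 fold change of HP1α WT against HP1γ WT was 0.039 in the shortest of 4 equal bins of transcript length and -0.024 in the longest, and -0.035 in the lowest of 4 bins of GC content and 0.042 in the highest. Between the KO samples of the lines the same medians were wider apart, with 0.13 in the shortest and -0.095 in the longest bin of length, and -0.18 in the lowest and 0.13 in the highest bin of GC content. Of the genes called between the WT groups, Bcl2l11 has 5046 bases and 48.0% GC, and Pmaip1 2732 bases and 42.2% GC. Bbc3 has 2684 bases and 63.7% GC, and Bid 2202 bases and 50.5% GC. Bcl2, the longest member (7247 bases, 46.6% GC), was called in neither comparison of the lines. The shortest members, Bax (976 bases, 59.4% GC) and Bad (1188 bases, 58.6% GC), were not called between the WT groups. Between the KO samples, both were called higher in HP1α KO (log2 fold change 0.36 for Bax and 0.58 for Bad). With a correction for transcript length in the fit of the WT groups, the same 4 members were called. With a correction for GC content, Pmaip1 was lost (log2 fold change -0.66, adjusted p = 0.0637, edgeR) and Bcl2l11, Bbc3 and Bid were kept. Between the KO samples, the same 7 members passed with the length correction. Their log2 fold changes were smaller in size there, with 0.25 for Bax, 0.49 for Bad and -0.67 for Bcl2l11. With the GC correction 5 passed, and Bak1 (0.27, adjusted p = 0.0552) and Pmaip1 (-0.53, adjusted p = 0.0725) were lost.

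Because Bcl2l11, Bbc3 and Bid are called members that differed between the lines in opposite directions, the 250 bases before the start of their canonical transcripts are printed here, 5′ to 3′ on the strand of the gene, from the GRCm39 genome with GENCODE starts (chr2:127967708-127967957 plus, chr7:16042421-16042670 plus and chr6:120893828-120894077 minus). Those of Bbc3 and Bid lie inside the gene's outer bounds, since other transcripts start further upstream. Capitals mark the matches to 7 motifs searched on both strands: the GC box GGGCGG, the forkhead (FOXO) motif TGTTTAC, the E-box CACGTG, the CRE half-site TGACG, the TATA box TATAAA, and by name the NF-κB consensus and the p53 half-site consensus.
Bcl2l11: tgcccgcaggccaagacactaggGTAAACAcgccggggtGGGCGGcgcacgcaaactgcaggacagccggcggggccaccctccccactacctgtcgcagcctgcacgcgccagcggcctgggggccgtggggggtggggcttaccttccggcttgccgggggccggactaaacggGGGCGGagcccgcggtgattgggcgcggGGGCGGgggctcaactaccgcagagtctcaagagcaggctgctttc
Bbc3: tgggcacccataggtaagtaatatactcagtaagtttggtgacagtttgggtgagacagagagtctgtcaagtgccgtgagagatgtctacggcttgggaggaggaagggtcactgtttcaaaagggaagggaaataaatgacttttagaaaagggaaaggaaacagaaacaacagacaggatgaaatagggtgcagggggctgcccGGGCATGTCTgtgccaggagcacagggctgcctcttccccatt
Bid: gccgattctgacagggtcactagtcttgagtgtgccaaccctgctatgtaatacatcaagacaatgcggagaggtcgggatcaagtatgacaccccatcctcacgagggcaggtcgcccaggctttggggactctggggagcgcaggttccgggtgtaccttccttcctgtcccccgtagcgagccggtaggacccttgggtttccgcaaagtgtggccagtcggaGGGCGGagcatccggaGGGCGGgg
The Bcl2l11 sequence held 3 GC boxes and 1 forkhead match, the Bbc3 sequence 1 p53 half-site match, and the Bid sequence 2 GC boxes. No 2 matches overlapped. Bcl2l11 had 24 CpG and Bid 15, against a median of 8 in the same window of 21770 protein-coding genes, and Bbc3 had 3.

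In all, 9 member promoters were searched. The GC box was found in 7 of 9, against 36.3% of all promoters, and was missing from the windows of Bbc3 and Bad. As for Bbc3 and Bid, the windows of Bad and Bcl2l1 lie inside the gene's outer bounds. Sequence before starts further upstream was not searched. The forkhead motif was found in Bcl2l11 and Bak1, against 2.72% of all promoters, and the p53 half-site in Bax and Bbc3, against 6.69%. Bax held 1 E-box (6.26% of all promoters) and Bcl2 1 CRE half-site (18% of all promoters). The TATA box (11.9%) and the NF-κB consensus (4.23%) had 0 matches among the members. A match describes letters in this window and no binding was measured in these samples.

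The balance of the members was described by their summed TPM. Mcl1 made up between 87.9% and 90.8% of the TPM of the 3 antiapoptotic genes in the 16 samples. The 5 BH3-only genes together reached 24.6%, 28.0%, 33.4% and 28.5% of the antiapoptotic TPM in HP1α WT and 23.7%, 23.6%, 31.0% and 31.2% in HP1α KO. In the other line, they reached 39.9%, 36.3%, 37.8% and 37.1% in WT and 35.8%, 41.0%, 34.4% and 36.1% in KO. The lines did not overlap in this share, and KO and WT of a line did. With the antiapoptotic A1 genes (Bcl2a1a, Bcl2a1b and Bcl2a1d), which are no members, added to the denominator, the share was between 15.7% and 18.8% in the HP1α line and between 17.6% and 21.1% in the HP1γ line, and the lines overlapped. The ratio of Bcl2l11 to Bcl2 was between 1.55 and 2.54 in the HP1α line and between 2.65 and 4.49 in the HP1γ line. These sums follow the members chosen and were not tested.

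**Figure D4:**
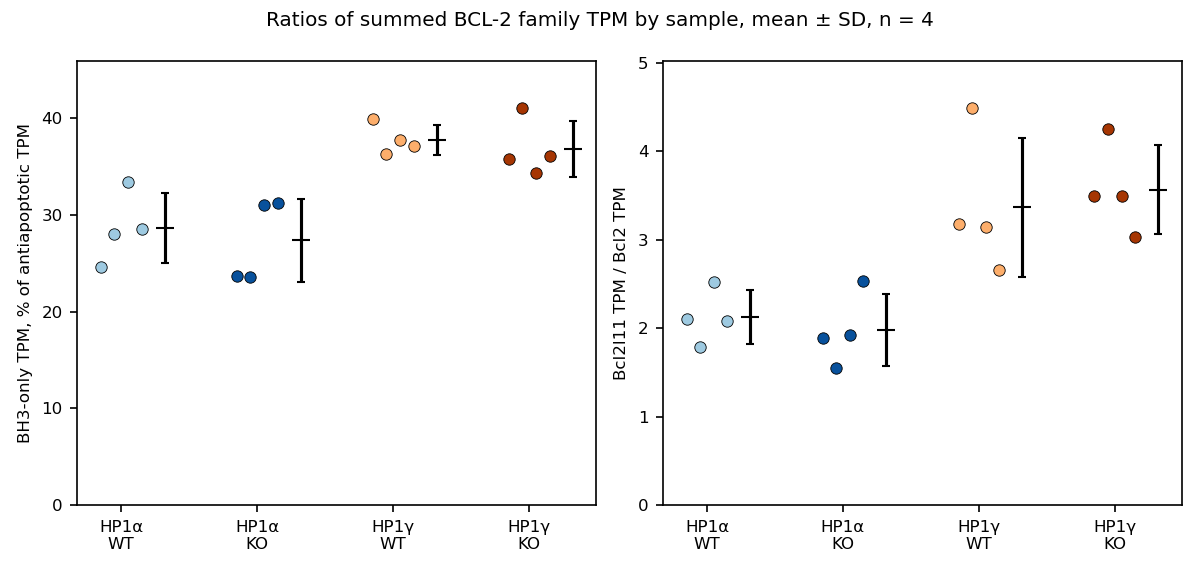
Summed TPM of the 5 BH3-only genes as a percent of the summed TPM of Bcl2, Bcl2l1 and Mcl1 (left) and the ratio of Bcl2l11 to Bcl2 TPM (right), by sample, with mean ± SD (n = 4). The percent lies between 23.6 and 33.4 in the HP1α line and between 34.4 and 41.0 in the HP1γ line, a gap that closes when the A1 genes are counted as antiapoptotic.

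The rest of the pathway was followed with lists of genes that are no members, 5 lists in all. No gene of these lists passed the adjustment by edgeR in either KO comparison or in the interaction. Between the WT groups, 12 of 15 other BCL-2 family genes were tested and 4 passed. Bmf, a BH3-only gene known from cells that lose their attachment, was lower in HP1α WT (7.72 ± 3.91 against 18.1 ± 6.31 CPM, SD, n = 4, log2 fold change -1.23, adjusted p = 0.0447). Bcl2a1b (-0.52) and Bcl2a1d (-0.60), near-identical copies of the antiapoptotic gene A1 between which reads can be split wrongly, were lower too, and Bcl2l12 was higher (0.40). Bcl2l10, Bok and Hrk had too few counts to be tested. The median log2 fold change of the list was -0.26, against 0.015 for all genes tested.

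Among 14 apoptosome and caspase genes, 3 passed. Casp8, the caspase that death receptors activate, was higher in HP1α WT (95.5 ± 2.64 against 67.5 ± 6.49 CPM, log2 fold change 0.50, adjusted p = 0.00515 by edgeR). Birc2 (-0.56) and Birc3 (-0.70), which encode the ubiquitin ligases cIAP1 and cIAP2, were lower. The median of the list was 0.12.

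Of 11 death receptor genes, 3 passed. Fasl, the ligand of the Fas receptor, was lower in HP1α WT (48.4 ± 5.32 against 85.4 ± 6.05 CPM, log2 fold change -0.82, adjusted p = 0.00139 by edgeR), as was Tnfrsf1b, which encodes TNF receptor 2 (-0.87). Tradd, an adaptor of TNF receptor 1, was higher (0.34). The list's median was 0.19. Of the 21 upstream regulators, 20 were tested and 3 passed: Rel, the NF-κB subunit c-Rel, was lower (316 ± 47.5 against 551 ± 76.1 CPM, log2 fold change -0.80, adjusted p = 0.00480 by edgeR), Stat5a, a transducer of cytokine signals, was lower (-0.54) and Trp53, which encodes p53, was higher (0.31). The median of that list was -0.086.

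Of 10 genes that set the turnover or tethering of MCL-1 and BIM, 2 passed as lower in HP1α WT. They were Usp9x, a deubiquitinase of MCL-1 (-0.34), and Gsk3b, a kinase that marks MCL-1 for degradation (-0.29). Dynll1, the light chain that tethers BIM and the highest of the list in TPM, did not pass. The median was -0.021. In the 5 lists, 11 genes were lower and 4 higher in HP1α WT. In the order given, the lists held 12, 14, 11, 20 and 10 tested genes. Of all genes tested, 8.25% were lower and 4.55% higher, 12.8% in all. Among the markers of the sorted cells, Cd28 (log2 fold change -0.60) was lower in HP1α WT too, as 1 of 8 T cell identity genes. Cd44 (-0.35) was lower as 1 of 4 memory gate genes. No other gene of these marker lists passed, and none passed as higher. The T cell identity genes had a median of -0.0094 and a highest value of 0.096, the memory gate genes -0.23 and 0.094. The part of these markers in the differences of the members was not tested.

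**Figure D5:**
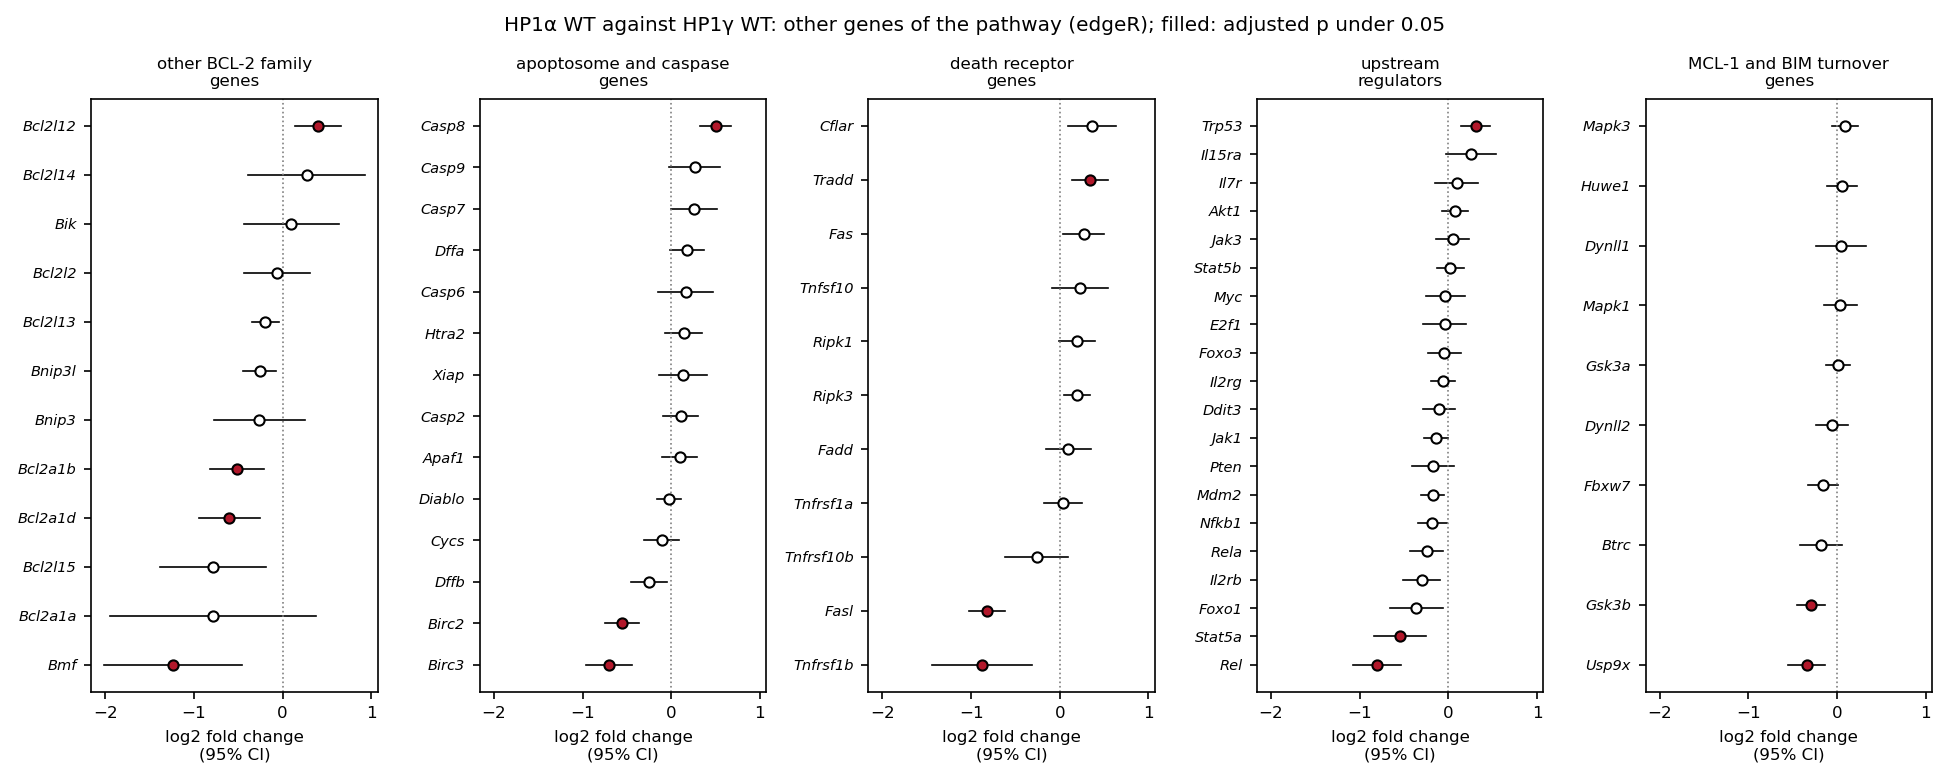
Log2 fold change with its 95% confidence interval (horizontal axis) of HP1α WT against HP1γ WT for the tested genes of the 5 lists, by edgeR, with filled points for an adjusted p under 0.05. In each list, genes that passed as lower stand beside many that did not pass, and Bmf (-1.23) has the lowest value and Casp8 (0.50) the highest.

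Genes whose pattern over the 16 samples was most like that of a member were looked up among 12533 genes with a mean of at least 1 CPM, by Pearson's r of log2(CPM + 1). For Bcl2l11 they were Dtx4 (r = 0.98, Spearman's rho 0.93), Bach1 (r = 0.97, rho 0.96) and Tax1bp1 (r = 0.97, rho 0.92). Within the 8 samples of the HP1α line, r with Bcl2l11 was 0.34 for Dtx4, 0.79 for Bach1 and 0.50 for Tax1bp1, and within the HP1γ line it was 0.94, 0.82 and 0.83. For Mcl1 the genes were Tpm3 (r = 0.79, rho 0.78), Trav7-5 (r = 0.78, rho 0.66) and Osm (r = 0.77, rho 0.79). For Bcl2 they were Dmrta1 (r = 0.68, rho 0.74), Trav13-2 (r = 0.64, rho 0.68) and Ift172 (r = 0.62, rho 0.67). The samples share the line, depth and base composition of their libraries, and the highest of many r values is a description only.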

How the data were processed

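Stranded mRNA libraries of 16 samples were sequenced in paired reads of 150 bp. Within an nf-core pipeline, the authors used Trim Galore for trimming, STAR for alignment to GRCm39 and Salmon for quantification. The authors deposited estimated counts per gene without normalization (11.6% of the values are not whole) and TPM, which keep no depth. Samples were grouped by title and genotype label. A treatment label and the series' design text, which speak of transferred cells and Treg, do not match the paper's account of these memory cells and were not used. Nothing says that replicates came from separate animals, so p-values measure the spread between these samples, which may be technical.

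Estimated counts were rounded and tested with R 4.3.3 and edgeR 4.0.16 (TMM, filterByExpr with a minimum count of 10, glmQLFit, glmQLFTest, Benjamini-Hochberg over all genes tested). Only the groups compared entered a fit, and the interaction used all 16 samples. A call is an adjusted p under 0.05. CPM follow TMM over 16 samples, and exact permutation tests of single values are two-sided and unadjusted. As alternatives, DESeq2 1.42.0, RLE size factors, no filter, a block for the replicate number, limma 3.58.1 on log2(TPM + 1) and log2(TPM + 0.1), all 16 samples in 1 fit and the omission of each sample were tried. Corrections for transcript length and GC content, the comparison of the KO samples between lines with its alternatives and the sum with the A1 genes were chosen after seeing the data. The members and the gene lists were chosen with earlier results of these data known. Named genes are the members, Cbx5 and Cbx3, each listed gene with an adjusted p under 0.05 (and the highest in TPM up to 3 per list), and the 3 genes most like Bcl2, Mcl1 and Bcl2l11. Cd4, Cd44, Cd28, Foxp3 and the hemoglobin genes are markers of the sort or of other cells. Of the genes first listed, 2 are not reported here and were left out of the counts and medians of their lists, though not of the fits. The edgeR test was tested on simulated data, where the interaction recovered fewer of the 2-fold changes than the other comparisons and missed the overall recovery limit first set. Limits for each fold size then replaced it. Coordinates and promoters are from GRCm39 with a GENCODE annotation, which is not the Ensembl release the authors counted on. No 2 replicates agreed within sampling noise.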

Additional observations from a re-analysis of the deposited data

Results flagged for a closer look

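Among the 40 sets of 4 samples (10 genes in 4 groups), 3 held a sample far from the others by Dixon's test, and chance alone flags about 1 in 20 such sets. Bid was at 14.5 CPM in HP1α KO replicate 3, against 19.3 to 20.1 CPM in the other samples of that group. Bid was also lowest in HP1α WT replicate 3, at 16.3 CPM against 19.9 to 20.6 CPM. Bax was at 54.3 CPM in HP1γ KO replicate 1, against 63.7 to 64.4 CPM in the other 3.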

How the results depend on the processing

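In the KO comparisons and the interaction, 0 members passed under each alternative run. Over all genes, the count in the HP1α line went from 0 to 5 with DESeq2, to 1 without the filter, with limma on log2(TPM + 1), with limma on log2(TPM + 0.1) and with the length correction, and lay between 0 and 3 when single samples were left out. In the HP1γ line, the 49 genes became 256 with DESeq2, 96 with all 16 samples in 1 fit, 28 with limma on log2(TPM + 1), 32 with limma on log2(TPM + 0.1), and 30 to 49 when single samples were left out. The 8 genes of the interaction became 76 with DESeq2, 14 without the filter and 4 with limma on log2(TPM + 0.1). Between the WT groups, the 1896 genes and 4 members became 2823 and 6 with DESeq2, with Bax and Bcl2l1 added. All 16 samples in 1 fit gave 2537 genes and 5 members, with Bax and Bcl2l1 added and Bbc3 lost. Limma on log2(TPM + 1) gave 1175 and 2 (250 genes higher and 925 lower), and on log2(TPM + 0.1) 1210 and 2. With the KO samples in place of WT, which also differ in the HP1 protein lost, the counts were 4921 and 7. When single samples were left out, 573 to 2185 genes and 1 to 4 members passed, with 573 genes without HP1α WT replicate 1. The causes were not tested.

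Replicate numbers come from the titles. Deviations of samples with the same number correlated at 0.094 to 0.228 in the HP1α line, 0.00286 to 0.153 in the HP1γ line and -0.204 to -0.0654 between the WT groups. For samples with different numbers, the values were -0.3 to 0.18, -0.301 to 0.281 and -0.13 to 0.168 in the same order. The samples were taken to share a number only, and any other link between them was not tested. When the replicate number entered as a block, 577 genes and 2 members (Bcl2l11 and Bbc3) passed between the WT groups, 60 genes and 0 members in the HP1γ line, 0 in the HP1α line and 6 genes in the interaction. Genes with an unadjusted p under 0.05 by edgeR went from 635 to 1025 in the HP1α line and from 1784 to 2462 in the HP1γ line. Between the WT groups they went from 4428 to 3877.

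Sign changes were confined to members that did not pass. By limma with a pseudocount of 1 or of 0.1 TPM, they were Bcl2l11 (-0.0709 and -0.0727) and Bad (-0.0577 and -0.0600) in HP1α KO, Bcl2 in HP1γ KO (0.0494 and 0.0519), Mcl1 between the WT groups (-0.0256 and -0.0256), and Bcl2 (-0.00733 and -0.00751) and Pmaip1 (-0.0537 and -0.0565) in the interaction. With the GC correction, they were Pmaip1 (0.000403) and Bad (-0.00409) in HP1α KO, and with the length correction Bcl2l11 in HP1γ KO (-0.000943) and in the interaction (0.0264). When single samples were left out, log2 fold changes in HP1α KO ranged from -0.0188 to 0.136 for Bcl2, -0.0212 to 0.0476 for Mcl1, -0.0644 to 0.0172 for Bak1, -0.0362 to 0.0448 for Bcl2l11, -0.141 to 0.0290 for Bid and -0.321 to 0.103 for Pmaip1. In HP1γ KO they ranged from -0.0892 to 0.0635 for Bcl2, -0.0162 to 0.0496 for Mcl1, -0.0792 to 0.134 for Bcl2l11 and -0.235 to 0.0416 for Pmaip1, and between the WT groups from -0.0281 to 0.0315 for Mcl1. Interaction values ranged from -0.0110 to 0.154 for Bcl2, -0.0607 to 0.0262 for Bcl2l1, -0.0252 to 0.0469 for Mcl1, -0.117 to 0.0932 for Bcl2l11, -0.187 to 0.235 for Pmaip1 and -0.135 to 0.240 for Bbc3. Between the KO samples of the lines, Bcl2 went from -0.0182 to 0.129 with the length correction and 0.0454 with the GC correction, and with single samples left out ranged from -0.0874 to 0.0665, Mcl1 from -0.0183 to 0.051 and the count of all genes from 3350 to 5202. Intervals cover the spread between 4 samples per group.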
